A study of Mus musculus with 12 samples.

Results

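The 44 genes described here belong to the amino acid and stress response driven by ATF4, and fall by role into 10 regulators, 6 effectors, 7 genes of serine and mitochondrial one-carbon synthesis, 7 genes of other amino acid synthesis, 8 amino acid transporters and 6 tRNA synthetases. They were chosen by name out of 47069 genes counted, in view of the CPM values and 5-FU fold changes of these same libraries, so their levels and fold changes are given as a description and not as independent evidence. All 44 were in the count table, and 43 were among the 16157 genes with enough reads to be tested. The transporter Slc7a3, with 0 to 8 reads in a library, was the exception.

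RNA was sequenced from cells of mouse liver tumor organoids that had been sorted on LGR5–GFP, with 3 libraries in each of 4 groups. Both the LGR5- and the LGR5+ population were profiled without drug and after 5-FU. In every group the organoids came from DEN-induced tumors of C57BL/6 mice carrying the Lgr5–DTR–GFP knock-in (genotype LGR5-DTRGFP+), in which the Lgr5 locus drives GFP and the diphtheria toxin receptor, so that GFP reports the activity of that locus. 5-FU (5-fluorouracil) is an anticancer drug that blocks thymidylate synthase and is built into RNA and DNA. The study's methods give a dose and schedule for organoid cultures without tying them to the sequenced cells, and do not state that libraries of a group came from separate cultures or animals. P values then measure the spread between these libraries, which may be technical.

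Counted reads ranged from 13750591 to 19323514 per library, and 3 reads corresponded to 0.165 to 0.220 CPM (reads of a gene relative to the library total after TMM scaling). Lgr5 itself lay between 18.3 and 36.0 CPM and did not separate the libraries labelled LGR5+ from those labelled LGR5-, so the population names below follow the sort. Mitochondrial genes took 1.47% to 3.08% of the reads in 10 libraries, but 6.93% and 6.44% in the untreated and the 5-FU-treated LGR5- replicate 3. Of 8 hepatocyte markers, 6 (Ttr, Hnf4a, Cyp3a11, Serpina1a, Tat and Cps1) had at most 3 reads in every library, whereas 6 cholangiocyte markers summed to 2390 to 3110 CPM in untreated and 3430 to 11900 CPM in treated libraries. The sums of 6 lung epithelium markers, mostly Sftpc, were 3550 to 17500 CPM untreated and 3050 to 6440 CPM treated. Among these 6, Sftpd rose in both populations (2.69 ± 0.28 in LGR5+ and 2.48 ± 0.28 in LGR5- cells on the log2 scale) and Napsa in LGR5- cells (1.51 ± 0.43). Treated Sftpa1 lay above untreated without overlap, but its change (1.85 ± 0.63 in each population) did not pass an adjusted P of 0.05 (edgeR). Neither did those of the other 3, with -1.03 ± 0.55 in LGR5+ and -1.26 ± 0.55 in LGR5- cells for Sftpc, 0.38 and -0.35 for Sftpb and 0.22 and 0.26 for Nkx2-1. The study's sorts gated out dead cells by propidium iodide and leucocytes by CD45. Leucocyte markers (7 genes, Cd3e at 3 reads or fewer) summed to 6.54 to 14.1 CPM in untreated and 17.3 to 54.8 CPM in treated libraries. For erythroid markers (6 genes, among which Hba-a2, Hbb-bs and Hbb-bt stayed at 3 reads or fewer) the sums were 0.788 to 1.89 and 21.7 to 52.7 CPM. Fibroblast markers (5 genes) summed to 23.9 to 59.3 CPM and endothelial markers (5 genes) to 1.67 to 4.06 CPM. Cholangiocyte, leucocyte and erythroid sums and single lung markers thus moved with 5-FU, as the genes below did, and their part in these results was not tested. In bulk libraries, fewer cells of one type and less RNA per cell cannot be told apart.

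ATF4 is the transcription factor of the integrated stress response. When amino acids run short, the endoplasmic reticulum is stressed or heme is lacking, kinases phosphorylate the initiation factor eIF2, most translation slows, and the ATF4 mRNA is translated more. ATF4 pairs with C/EBP proteins on C/EBP-ATF response elements and turns on genes that make amino acids, carry them into the cell and load them onto tRNAs, while prolonged activity also turns on the death-associated factor CHOP (Ddit3) and the feedback inhibitor TRIB3. Tumor cells use the same program to feed serine and folate-bound one-carbon units into nucleotide synthesis.

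The core letters of that response element, TGATGNAA, were searched on both strands of the 300 bases around the start of each gene (250 before and 50 after it, RefSeq, GRCm38.p6). Of the 44 genes, 36 were matched to a window, and 15 of them (41.7%) held the letters, against 1219 of 27025 genes with a window (4.51%). No window was matched for Eif4ebp1, Aldh1l2, Cth, Slc7a5, Slc7a3, Slc1a5, Nars and Wars. The letters were in 4 of 10 regulators, 3 of 5 effectors, 4 of 6 genes of amino acid synthesis, 2 of 5 transporters and 2 of 4 synthetases, and in none of the 6 serine and one-carbon genes with a window. Most matches are shown as 30 bases each, read on the strand that spells the letters searched, which are in capitals. First are 7 genes whose mRNA fell after 5-FU in both populations.
Jdp2, chr12:85599372-85599401: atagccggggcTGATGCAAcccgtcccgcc
Trib3, chr2:152344028-152344057: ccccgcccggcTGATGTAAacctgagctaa
Chac1, chr2:119351038-119351067: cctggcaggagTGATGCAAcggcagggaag
Fgf21, chr7:45615611-45615640: gcctggacggaTGATGCAAtgggggggtct
Vldlr, chr19:27216809-27216838: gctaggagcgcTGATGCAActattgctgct
Asns, chr6:7693214-7693243: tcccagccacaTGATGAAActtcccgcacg
Pck2, chr14:55540152-55540181: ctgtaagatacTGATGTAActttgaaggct

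The next genes carried the same letters and passed as lower in LGR5- cells alone (Got1 and Gars) or passed the test in neither population (the others), and are shown because they hold the letters without falling in both.
Got1, chr19:43524689-43524718: ggaggcttgtaTGATGCAAccaatgcaatg
Gars, chr6:55037960-55037989: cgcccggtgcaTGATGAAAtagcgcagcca
Atf3, chr1:191183425-191183454: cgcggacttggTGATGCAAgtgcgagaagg
Nupr1, chr7:126625562-126625591: caagccctgtcTGATGCAAtctggcccttt
Pycr1, chr11:120643833-120643862: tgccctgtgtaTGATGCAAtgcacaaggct
Slc7a11, chr3:50443661-50443690: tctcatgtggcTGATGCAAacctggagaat
Slc7a11, chr3:50443642-50443671: gggctgcatgaTGATGCAAattctccaggt
Slc1a4, chr11:20332699-20332728: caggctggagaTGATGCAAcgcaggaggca

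Slc7a11 had 2 matches, which began 66 and 47 bases before the start, on opposite strands. Among genes with a window, the letters were in 7 of 19 (36.8%) that fell in both populations and in 6 of 13 (46.2%) that passed in neither, so a match was no more frequent among the former. A match is a description of the letters and not of ATF4 binding. For the secreted hormone Fgf21 and the mitochondrial enzyme Pck2, whose upstream windows hold no annotated exon, the 250 bases before the start are shown whole on the strand of the gene (minus for Fgf21, plus for Pck2), with the element, here read from its opposite strand, in capitals 139 and 103 bases before the start.
Fgf21, chr7:45615491-45615740: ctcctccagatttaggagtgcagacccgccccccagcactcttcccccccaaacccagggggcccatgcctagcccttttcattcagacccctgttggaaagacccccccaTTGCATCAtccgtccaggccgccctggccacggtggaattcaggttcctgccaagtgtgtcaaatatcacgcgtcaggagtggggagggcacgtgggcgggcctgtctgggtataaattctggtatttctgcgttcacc
Pck2, chr14:55540016-55540265: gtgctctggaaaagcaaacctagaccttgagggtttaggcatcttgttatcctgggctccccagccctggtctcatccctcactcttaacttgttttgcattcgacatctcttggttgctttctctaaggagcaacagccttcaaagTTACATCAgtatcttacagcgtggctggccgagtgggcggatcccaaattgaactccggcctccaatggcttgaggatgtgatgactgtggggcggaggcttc

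5-FU-treated cells were first compared with untreated cells of the same population, which asks how the program stood in the cells present after the drug. In LGR5+ cells, 24 of the 43 tested genes were lower and 1 (Cebpb) was higher at an adjusted P under 0.05 (edgeR quasi-likelihood test, Benjamini-Hochberg adjustment). Of all genes tested, 6.37% were lower and 9.66% higher by the same rule. In LGR5- cells 28 of the 43 were lower and none was higher, against 7.11% lower and 8.30% higher over all genes, with 1 listed gene higher at an unadjusted P under 0.05 and 1 by DESeq2. These shares describe a list that was drawn up with the fall in view, and nothing is read from them. The 24 genes that fell in LGR5+ cells were all among the 28 of LGR5- cells, which also held Got1, Slc6a9, Gars and Nars. By the limits of the study's methods, an unadjusted P under 0.05 and a log2 fold change beyond 1.5, 18 listed genes were lower in LGR5+ (2.81% of all genes) and 16 in LGR5- cells (2.75%). Every treated library lay under every untreated one for 33 of the 43 in LGR5+ cells (20.0% of all genes) and for 28 in LGR5- cells (13.4%). The median log2 fold change of the 43 was -0.999 in LGR5+ and -1.03 in LGR5- cells, and that of all genes -0.02 and -0.05.

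**Figure D1:**
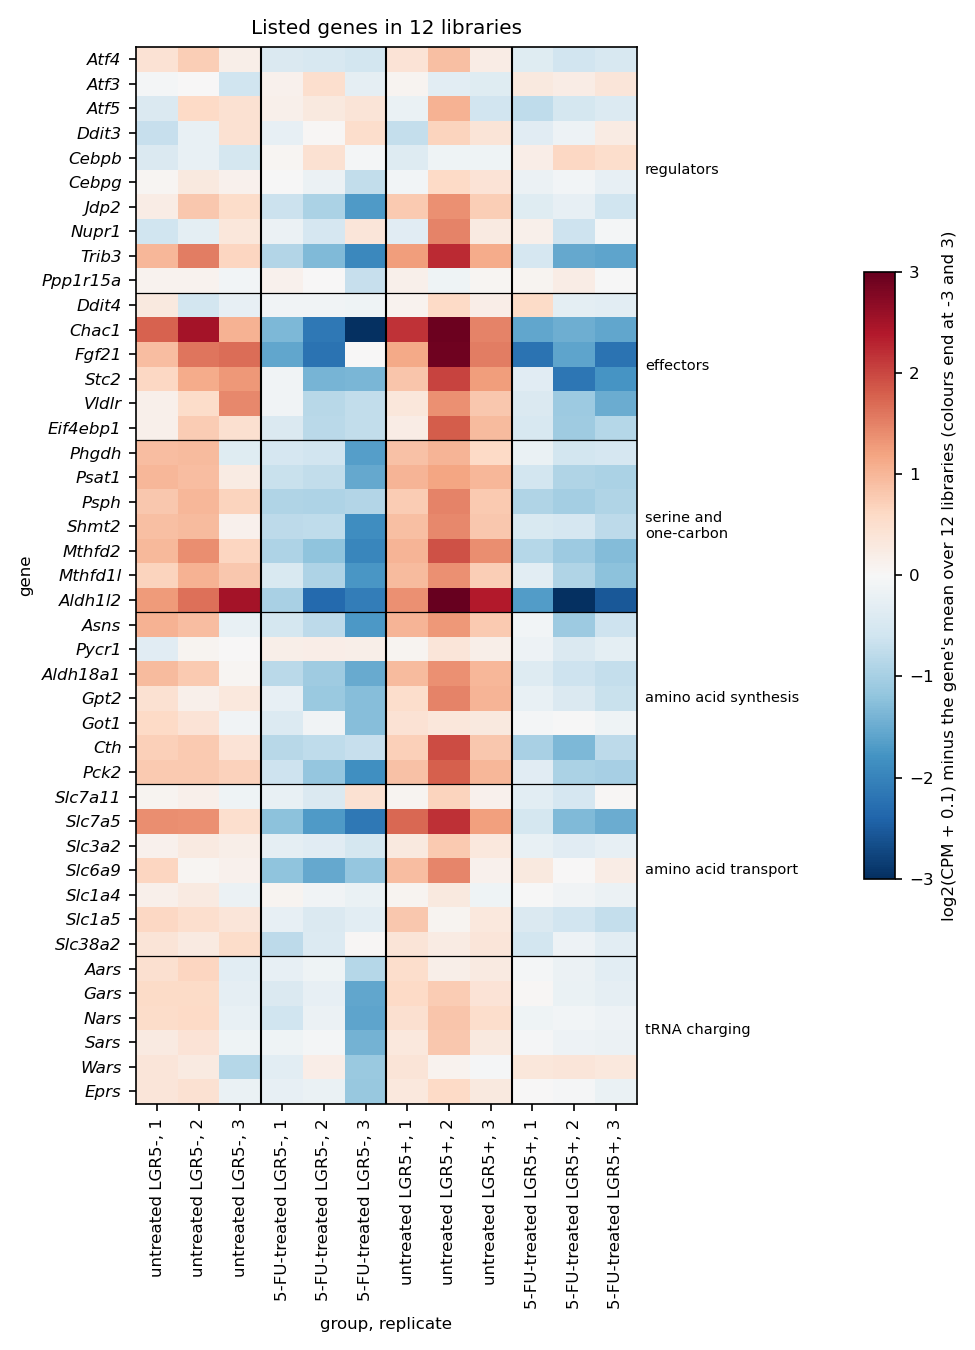
Each row is 1 of the 43 tested genes and each column 1 of the 12 libraries, and the colour gives log2(CPM + 0.1) minus the mean of that gene over the 12 libraries, from blue (lower) to red (higher). The serine and one-carbon block turns from red to blue with 5-FU in both populations, while Atf3, Ddit3, Ppp1r15a and Slc1a4 stay pale; untreated LGR5+ replicate 2 is the reddest column.

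The regulators were divided. Atf4 mRNA itself (chr15:80255184-80257541, plus strand, GRCm38) was about 2.02-fold lower after 5-FU in LGR5+ cells and 1.95-fold lower in LGR5- cells, and the pseudokinase gene Trib3, an ATF4 target whose product restrains ATF4, fell 6.77-fold and 5.41-fold. Atf4 measured in LGR5+ cells 233, 328 and 204 CPM untreated and 136, 116 and 126 CPM after 5-FU, and in LGR5- cells 236, 292 and 197 CPM untreated and 129, 125 and 118 CPM after 5-FU. The untreated and treated ranges did not overlap in either population, and the log2 fold changes (± SE, n = 3 libraries a group) were -1.01 ± 0.21 in LGR5+ and -0.96 ± 0.21 in LGR5- cells. Trib3 measured in LGR5+ cells 25.5, 50.9 and 23.4 CPM untreated and 7.59, 3.63 and 3.51 CPM after 5-FU, and in LGR5- cells 21.3, 31.0 and 16.9 CPM untreated and 5.77, 4.22 and 2.71 CPM after 5-FU. Its highest treated library stayed well under its lowest untreated one, with log2 fold changes of -2.76 ± 0.40 in LGR5+ and -2.44 ± 0.40 in LGR5- cells. Jdp2, which encodes a repressor of the AP-1 family that binds with other bZIP factors, was low throughout. In LGR5+ cells it stood at 6.58, 9.95 and 6.45 CPM untreated and 2.92, 3.19 and 2.46 CPM after 5-FU, and in LGR5- cells 4.48, 6.75 and 5.61 CPM untreated and 2.41, 1.93 and 1.10 CPM after 5-FU. These ranges did not overlap either, with changes of -1.42 ± 0.32 in LGR5+ and -1.61 ± 0.33 in LGR5- cells.

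Cebpb, a C/EBP partner of ATF4 with roles in inflammation and differentiation, moved the other way. Values in LGR5+ cells were 50.9, 61.1 and 61.2 CPM untreated and 76.2, 103 and 95.5 CPM after 5-FU, and in LGR5- cells 49.5, 56.7 and 46.3 CPM untreated and 68.9, 91.9 and 64.1 CPM after 5-FU. All treated libraries were above all untreated ones in both populations, and the rise passed the test in LGR5+ cells only (0.66 ± 0.19 in LGR5+ and 0.56 ± 0.19 in LGR5- cells), where it was lost in 7 of 13 other settings, with adjusted P up to 0.128. The exons of Cebpb share 20.7% of their bases with Tmem189 on the opposite strand, and whether reads were counted by strand is not given in the sources used here. Cebpg, a further C/EBP partner of ATF4, measured in LGR5+ cells 44.2, 70.4 and 62.1 CPM untreated and 41.1, 43.8 and 39.4 CPM after 5-FU, and in LGR5- cells 48.8, 57.3 and 51.3 CPM untreated and 46.5, 41.2 and 27.9 CPM after 5-FU. Treated libraries were lower without overlap, but the changes did not pass the test (-0.51 ± 0.21 in LGR5+ and -0.44 ± 0.21 in LGR5- cells).

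The remaining regulators passed the test in neither population. Atf3, an early stress-induced repressor and activator, had log2 fold changes of 0.48 ± 0.22 in LGR5+ and 0.35 ± 0.22 in LGR5- cells, and its treated LGR5+ libraries (117 to 130.2 CPM) lay above the untreated ones (78.0 to 106 CPM). Ddit3, which encodes CHOP and for which GENCODE lists a further gene of the same name on shared exons, had -0.28 ± 0.34 in LGR5+ and 0.21 ± 0.34 in LGR5- cells. For Ppp1r15a, the phosphatase subunit GADD34 that reverses eIF2 phosphorylation, the values were 0.07 ± 0.20 in LGR5+ and -0.19 ± 0.20 in LGR5- cells. Atf5, a relative of ATF4 under like translational control, had -0.83 ± 0.37 in LGR5+ and 0.00 ± 0.36 in LGR5- cells, and Nupr1, a small stress-induced chromatin protein, -0.83 ± 0.40 in LGR5+ and 0.06 ± 0.40 in LGR5- cells. Their untreated LGR5+ ranges were wide, with replicate 2 at 16.6 CPM for Atf5 and 52.5 CPM for Nupr1, beside 5.32 to 6.93 and 14.7 to 22.5 CPM in the other two. Without that replicate the changes in LGR5+ cells were -0.18 for Atf5 and -0.14 for Nupr1.

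**Figure D2:**
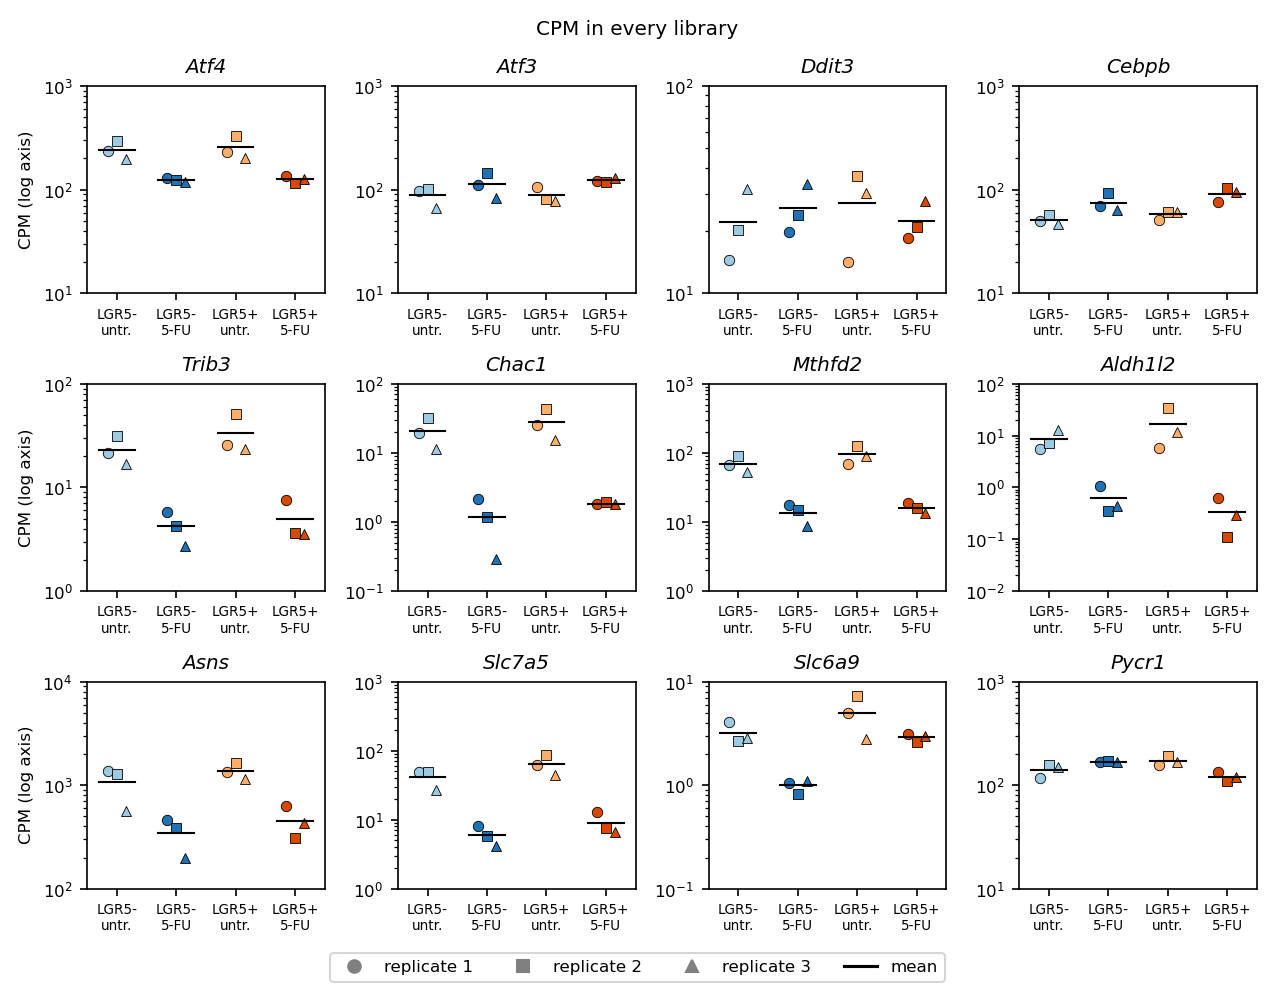
CPM of 12 listed genes on log axes, with 1 point per library (circle, square and triangle for replicates 1, 2 and 3) and a line at the mean of each group. Trib3, Chac1, Mthfd2, Aldh1l2, Asns and Slc7a5 drop with 5-FU in both populations, Slc6a9 drops in LGR5- cells, Cebpb lies higher after 5-FU, and Pycr1 lies lower in LGR5+ and higher in LGR5- cells after 5-FU without passing the test.

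Among effectors, 5 of 6 fell in each population. Chac1 (chr2:119351229-119354381, plus strand), which degrades glutathione, was 15-fold lower in LGR5+ and 16.8-fold lower in LGR5- cells. Its level in LGR5+ cells was 25.0, 43.1 and 15.5 CPM untreated and 1.80, 1.93 and 1.81 CPM after 5-FU, and in LGR5- cells 19.1, 31.4 and 11.5 CPM untreated and 2.12, 1.17 and 0.293 CPM after 5-FU. The treated LGR5+ libraries were close to each other and the treated LGR5- libraries were not, and the log2 fold changes were -3.91 ± 0.52 in LGR5+ and -4.07 ± 0.54 in LGR5- cells, with -4.75 in LGR5- cells without treated replicate 1. Fgf21, an endocrine hormone of nutrient stress, was near the detection limit even in untreated cells. It measured in LGR5+ cells 0.924, 3.44 and 1.25 CPM untreated and 0, 0.0550 and 0 CPM after 5-FU, and in LGR5- cells 0.788, 1.32 and 1.39 CPM untreated and 0.0588, 0 and 0.367 CPM after 5-FU. In LGR5+ cells, where 2 of the 3 treated libraries had no read and the third had 1, it was at least 11-fold lower, taking 3 reads in each library (0.170 CPM) as the limit, and at least 6.42-fold lower without untreated LGR5+ replicate 2, which had the most reads. In LGR5- cells the treated libraries had 1, 0 and 5 reads, and that fall (log2 fold change -3.09 ± 0.88, and -4.97 to -2.49 when single libraries were left out) was lost in 4 of 13 other settings, with adjusted P up to 0.0944.

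Stc2, a secreted glycoprotein, measured in LGR5+ cells 31.4, 72.1 and 42.4 CPM untreated and 13.8, 3.85 and 5.09 CPM after 5-FU, and in LGR5- cells 27.0, 38.5 and 43.8 CPM untreated and 16.4, 6.67 and 6.75 CPM after 5-FU. The changes were -2.68 ± 0.50 in LGR5+ and -1.87 ± 0.48 in LGR5- cells. That in LGR5+ cells was -3.44 without treated replicate 1, and the one in LGR5- cells was lost in 6 of 14 other settings, with adjusted P up to 0.200. Vldlr, a lipoprotein receptor, measured in LGR5+ cells 17.03, 35.3 and 23.8 CPM untreated and 9.95, 6.33 and 4.79 CPM after 5-FU, and in LGR5- cells 15.1, 19.8 and 37.2 CPM untreated and 12.6, 7.61 and 8.14 CPM after 5-FU. It fell in both populations (-1.85 ± 0.37 in LGR5+ and -1.34 ± 0.37 in LGR5- cells), as did Eif4ebp1, the translation repressor 4E-BP1 (-1.92 ± 0.33 in LGR5+ and -1.13 ± 0.32 in LGR5- cells). The latter measured in LGR5+ cells 169.5, 512 and 282 CPM untreated and 105, 69.7 and 80.5 CPM after 5-FU, and in LGR5- cells 162, 246 and 205 CPM untreated and 109, 83.6 and 87.4 CPM after 5-FU. For both genes the ranges did not overlap, and the call in LGR5- cells was lost in 4 of 14 other settings. Ddit4, the mTORC1 inhibitor REDD1, passed in neither population (-0.27 ± 0.27 in LGR5+ and 0.02 ± 0.28 in LGR5- cells).

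The serine and one-carbon genes moved as a block, with 7 of 7 lower in each population and no overlap for any of them. Their summed level was 1150 to 1549 CPM in untreated and 371 to 469.6 CPM in treated LGR5+ libraries, and 700 to 1253 against 209 to 405 CPM in LGR5- libraries. Psph, the phosphatase of the last step to serine, fell in both populations. In LGR5+ cells it stood at 60.6, 100.2 and 61.8 CPM untreated and 19.2, 17.6 and 19.1 CPM after 5-FU, and in LGR5- cells 62.0, 71.4 and 56.6 CPM untreated and 19.0, 18.6 and 19.4 CPM after 5-FU. The treated libraries of both populations lay within 17.6 to 19.4 CPM, and the changes were -2.00 ± 0.20 in LGR5+ and -1.74 ± 0.20 in LGR5- cells. Psat1, the transaminase of the step before, measured in LGR5+ cells 453, 505 and 442 CPM untreated and 152, 119 and 116 CPM after 5-FU, and in LGR5- cells 442, 421 and 266 CPM untreated and 142, 135 and 76.9 CPM after 5-FU. It changed by -1.85 ± 0.26 in LGR5+ and -1.68 ± 0.26 in LGR5- cells. Phgdh, the entry enzyme from glycolysis, had -1.26 ± 0.34 in LGR5+ and -1.45 ± 0.34 in LGR5- cells, and its untreated LGR5- replicate 3 (164 CPM) lay near the treated replicates 1 and 2 (149 and 143 CPM). The call for Phgdh was lost in 4 of 13 other settings in LGR5+ cells and 1 of 14 in LGR5- cells.

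On the mitochondrial side, Shmt2, which splits serine into glycine and a folate-bound carbon unit, changed by -1.66 ± 0.30 in LGR5+ and -1.76 ± 0.30 in LGR5- cells. Mthfd2, the dehydrogenase and cyclohydrolase that oxidizes that unit, measured in LGR5+ cells 68.5, 127 and 89.4 CPM untreated and 18.6, 15.8 and 13.6 CPM after 5-FU, and in LGR5- cells 66.1, 89.3 and 53.1 CPM untreated and 17.7, 14.6 and 8.66 CPM after 5-FU. It fell 5.93-fold and 5.08-fold (-2.57 ± 0.29 in LGR5+ and -2.34 ± 0.29 in LGR5- cells). Mthfd1l, which releases formate, measured in LGR5+ cells 18.5, 25.1 and 15.9 CPM untreated and 7.64, 5.12 and 4.03 CPM after 5-FU, and in LGR5- cells 15.2, 19.7 and 16.9 CPM untreated and 6.95, 5.04 and 2.79 CPM after 5-FU. Its changes were -1.82 ± 0.31 in LGR5+ and -1.80 ± 0.31 in LGR5- cells. Aldh1l2, which oxidizes the formyl unit to carbon dioxide and makes NADPH, had the widest change of the block. Values in LGR5+ cells were 5.83, 33.7 and 11.7 CPM untreated and 0.618, 0.110 and 0.292 CPM after 5-FU, and in LGR5- cells 5.45, 7.13 and 12.8 CPM untreated and 1.06, 0.351 and 0.440 CPM after 5-FU. The treated libraries were at or under 1.06 CPM in LGR5- and 0.618 CPM in LGR5+ cells, the lowest with 2 reads, and untreated LGR5+ replicate 2 stood above all others. The log2 fold changes were -5.62 ± 0.74 in LGR5+ and -3.75 ± 0.69 in LGR5- cells. In LGR5+ cells the change was -4.66 without untreated replicate 2 and -6.37 without treated replicate 1, and in LGR5- cells it was -4.41 without treated replicate 1. The call in LGR5- cells was lost without both libraries of high mitochondrial share (adjusted P = 0.0608, edgeR). The exons of Aldh1l2 and Psph share 14.1% and 10.4% of their bases with a gene on the opposite strand.

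**Figure D3:**
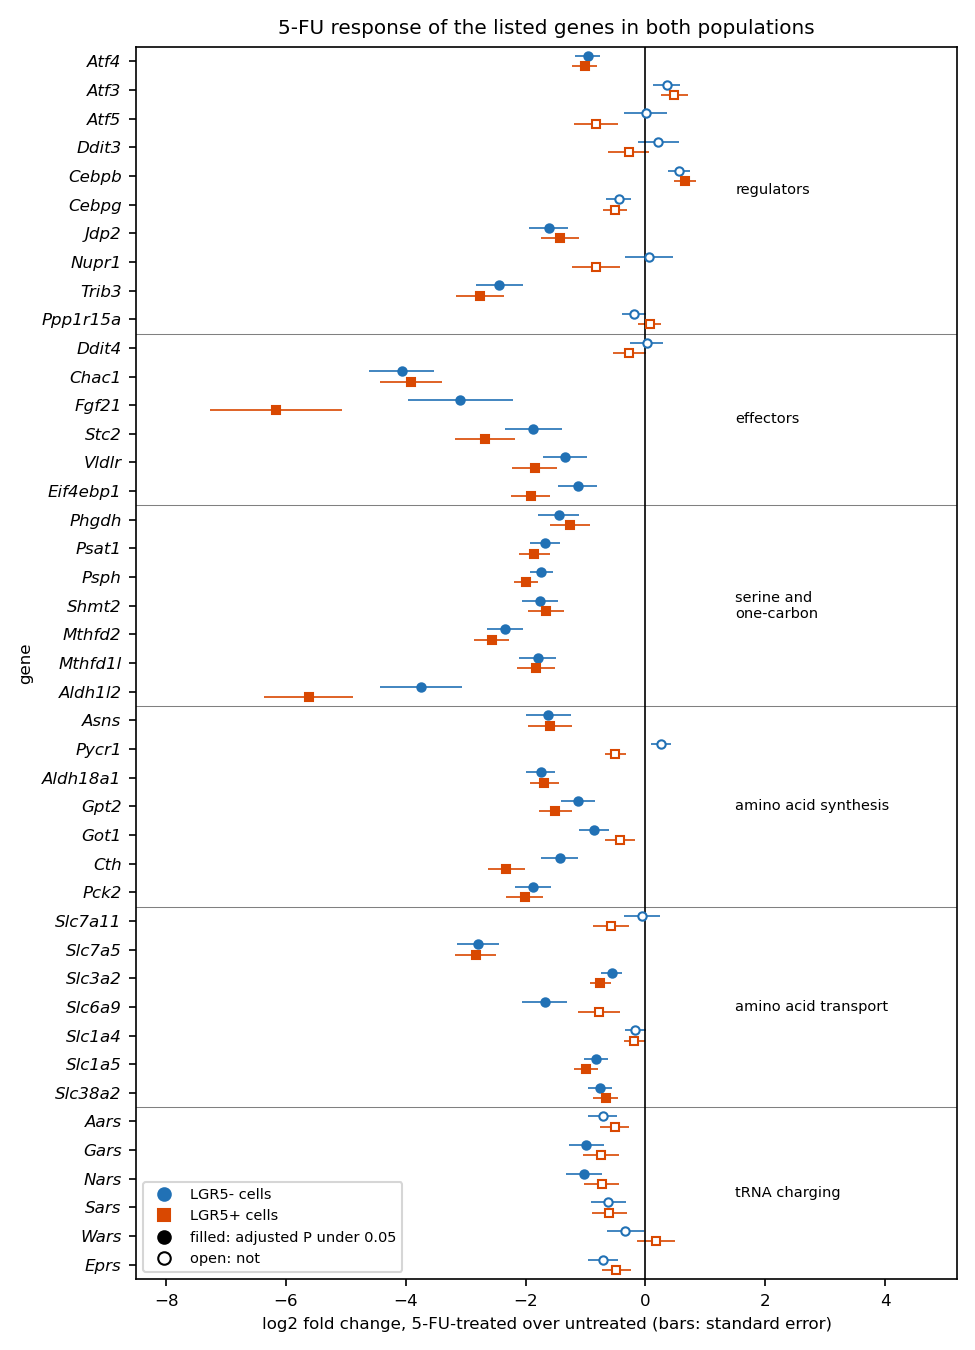
Log2 fold changes (5-FU-treated over untreated) of the 43 tested genes with bars of 1 standard error, squares for LGR5+ and circles for LGR5- cells, filled where the adjusted P was under 0.05. All 7 serine and one-carbon genes are filled on the left in both populations, of the 6 tRNA synthetases only Gars and Nars are filled, in LGR5- cells, and Cebpb is the only filled point on the right. Fgf21 in LGR5+ cells is fitted against libraries with 0 or 1 read, so its position is no measure of size.

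Of the other amino acid synthesis genes, 5 of 7 fell in LGR5+ and 6 of 7 in LGR5- cells. Asns, the asparagine synthetase, had the highest level per length of all listed genes in untreated cells, with 502 CPM per kb of exon in LGR5+ and 391 in LGR5- cells, next to 154 and 132 for Phgdh. Its level in LGR5+ cells was 1351, 1631 and 1142 CPM untreated and 623, 309 and 434 CPM after 5-FU, and in LGR5- cells 1371, 1269 and 566 CPM untreated and 459.8, 382 and 199.5 CPM after 5-FU. The ranges did not overlap, although untreated LGR5- replicate 3 lay well under the other two, and the changes were -1.59 ± 0.37 in LGR5+ and -1.62 ± 0.37 in LGR5- cells. The call in LGR5+ cells was lost without treated replicate 2 (adjusted P = 0.0601, edgeR). Pck2, the mitochondrial PEP carboxykinase that draws on the citric acid cycle, measured in LGR5+ cells 119.6, 224 and 128 CPM untreated and 51.2, 33.2 and 32.1 CPM after 5-FU, and in LGR5- cells 111, 111 and 105 CPM untreated and 42.0, 28.8 and 18.1 CPM after 5-FU. It changed by -2.02 ± 0.31 in LGR5+ and -1.88 ± 0.31 in LGR5- cells. Cth, which makes cysteine from cystathionine, measured in LGR5+ cells 14.7, 34.8 and 15.6 CPM untreated and 4.50, 3.41 and 5.09 CPM after 5-FU, and in LGR5- cells 14.6, 15.5 and 11.8 CPM untreated and 4.94, 5.15 and 5.43 CPM after 5-FU. Its fall was 5.00-fold in LGR5+ and 2.70-fold in LGR5- cells (-2.32 ± 0.31 in LGR5+ and -1.43 ± 0.30 in LGR5- cells), with untreated LGR5+ replicate 2 again the highest.

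Aldh18a1, which starts proline synthesis from glutamate, measured in LGR5+ cells 53.2, 71.5 and 55.4 CPM untreated and 21.1, 17.99 and 16.8 CPM after 5-FU, and in LGR5- cells 53.0, 47.2 and 28.9 CPM untreated and 15.7, 13.1 and 9.54 CPM after 5-FU. It changed by -1.69 ± 0.24 in LGR5+ and -1.75 ± 0.24 in LGR5- cells. Gpt2, the mitochondrial alanine transaminase, measured in LGR5+ cells 26.6, 51.1 and 37.4 CPM untreated and 15.5, 13.5 and 11.5 CPM after 5-FU, and in LGR5- cells 25.3, 20.2 and 22.6 CPM untreated and 15.4, 8.31 and 7.48 CPM after 5-FU. It changed by -1.504 ± 0.28 in LGR5+ and -1.12 ± 0.28 in LGR5- cells, and the call in LGR5- cells was lost in 4 of 14 other settings, with adjusted P up to 0.0751, among them that without both LGR5- libraries of high mitochondrial share. Got1, the cytosolic aspartate transaminase, was lower without overlap in both populations and passed in LGR5- cells (-0.42 ± 0.25 in LGR5+ and -0.85 ± 0.25 in LGR5- cells), where the call was lost in 5 of 14 other settings, with adjusted P up to 0.134. Pycr1, which completes proline synthesis, was the listed gene whose groups lay apart in opposite directions. It measured in LGR5+ cells 156, 190.1 and 168 CPM untreated and 134, 109 and 120.2 CPM after 5-FU, and in LGR5- cells 117, 156 and 148 CPM untreated and 168, 170.4 and 167 CPM after 5-FU. After 5-FU its libraries were all lower in LGR5+ and all higher in LGR5- cells, but neither change passed the test (-0.50 ± 0.17 in LGR5+ and 0.26 ± 0.17 in LGR5- cells).

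Of the 7 tested transporters, 4 fell in LGR5+ and 5 in LGR5- cells. Slc7a5 (chr8:121881150-121907694, minus strand), the leucine carrier LAT1, was the largest change of the group, at 7.11-fold and 6.96-fold lower. In LGR5+ cells it stood at 62.1, 87.2 and 44.6 CPM untreated and 13.1, 7.48 and 6.67 CPM after 5-FU, and in LGR5- cells 49.4, 49.2 and 26.8 CPM untreated and 8.004, 5.74 and 4.18 CPM after 5-FU. The log2 fold changes were -2.83 ± 0.34 in LGR5+ and -2.80 ± 0.35 in LGR5- cells. Slc3a2, the heavy chain with which LAT1 and the cystine carrier form their complexes, fell by less. Values in LGR5+ cells were 262, 365 and 266 CPM untreated and 182, 167 and 179.9 CPM after 5-FU, and in LGR5- cells 234, 255 and 239 CPM untreated and 176, 168 and 149 CPM after 5-FU. Its changes were -0.76 ± 0.18 in LGR5+ and -0.56 ± 0.18 in LGR5- cells. The call in LGR5- cells was lost in 10 of 14 other settings, with adjusted P up to 0.179, and that in LGR5+ cells without untreated or treated replicate 2, with adjusted P up to 0.0599.

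Slc1a5, the glutamine carrier ASCT2, measured in LGR5+ cells 322, 195 and 231 CPM untreated and 137, 124 and 113 CPM after 5-FU, and in LGR5- cells 284, 264 and 235 CPM untreated and 156, 136 and 148 CPM after 5-FU. Its changes were -0.999 ± 0.20 in LGR5+ and -0.83 ± 0.20 in LGR5- cells. Slc38a2, the neutral amino acid carrier SNAT2, measured in LGR5+ cells 153, 139.6 and 149 CPM untreated and 79.7, 106 and 93.5 CPM after 5-FU, and in LGR5- cells 153, 140.5 and 171 CPM untreated and 67.5, 87.8 and 119 CPM after 5-FU. No range overlapped for either gene, and Slc38a2 (-0.67 ± 0.20 in LGR5+ and -0.76 ± 0.20 in LGR5- cells) lost its call in 6 of 13 other settings in LGR5+ and 4 of 14 in LGR5- cells. Slc6a9, the glycine carrier GlyT1, passed in LGR5- cells and not in LGR5+ cells. Its level in LGR5+ cells was 4.97, 7.19 and 2.81 CPM untreated and 3.15, 2.59 and 2.98 CPM after 5-FU, and in LGR5- cells 4.06, 2.69 and 2.83 CPM untreated and 1.06, 0.820 and 1.10 CPM after 5-FU. Treated and untreated libraries overlapped in LGR5+ cells and not in LGR5- cells (-0.78 ± 0.35 in LGR5+ and -1.68 ± 0.38 in LGR5- cells), and 27.8% of its exon bases are shared with Ccdc24 on the opposite strand. Slc7a11, the cystine carrier xCT, and Slc1a4, the serine and alanine carrier ASCT1, passed in neither population, with -0.57 ± 0.30 in LGR5+ and -0.06 ± 0.30 in LGR5- cells for Slc7a11 and -0.19 ± 0.18 in LGR5+ and -0.17 ± 0.18 in LGR5- cells for Slc1a4.

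The 6 tRNA synthetases, which load alanine (Aars), glycine (Gars), asparagine (Nars), serine (Sars), tryptophan (Wars) and glutamate with proline (Eprs) onto their tRNAs, had few calls. None passed in LGR5+ cells, where 2 were lower at an unadjusted P under 0.05 (13.9% of all genes). Gars and Nars fell in LGR5- cells, where 5 were lower at that limit (14.7% of all genes). Nars measured in LGR5+ cells 243, 309 and 251 CPM untreated and 159, 166 and 158 CPM after 5-FU, and in LGR5- cells 255, 262 and 149 CPM untreated and 115, 153 and 57.9 CPM after 5-FU. Gars measured in LGR5+ cells 155, 175 and 137 CPM untreated and 105, 89.1 and 85.8 CPM after 5-FU, and in LGR5- cells 154, 153 and 84.9 CPM untreated and 76.5, 86.7 and 34.8 CPM after 5-FU. In both genes the treated LGR5- replicate 3 was the lowest library by far, and the untreated LGR5- replicate 3 overlapped with the treated libraries. The changes were -0.73 ± 0.30 in LGR5+ and -1.03 ± 0.30 in LGR5- cells for Nars and -0.74 ± 0.30 in LGR5+ and -0.98 ± 0.30 in LGR5- cells for Gars, whose calls in LGR5- cells were lost in 5 and 4 of 14 other settings. For Aars, whose exons share 14.3% of their bases with Exosc6 on the same strand, the log2 fold changes were -0.51 ± 0.24 in LGR5+ and -0.71 ± 0.24 in LGR5- cells. Aars measured in LGR5+ cells 165, 131 and 139 CPM untreated and 111, 101 and 92.5 CPM after 5-FU, and in LGR5- cells 160.3, 179.7 and 93.0 CPM untreated and 96.3, 104 and 63.2 CPM after 5-FU. Its LGR5+ ranges were apart and its LGR5- ranges overlapped. Sars measured in LGR5+ cells 214, 301 and 211 CPM untreated and 169, 155 and 153 CPM after 5-FU, and in LGR5- cells 207, 226 and 157 CPM untreated and 156, 164 and 63.9 CPM after 5-FU. Eprs measured in LGR5+ cells 254, 311 and 252 CPM untreated and 205, 199 and 179 CPM after 5-FU, and in LGR5- cells 261, 281 and 179.5 CPM untreated and 171, 178 and 92.3 CPM after 5-FU. Treated LGR5- replicate 3 was again the lowest library for both, and only the LGR5- ranges of Sars overlapped. The changes were -0.61 ± 0.29 in LGR5+ and -0.62 ± 0.29 in LGR5- cells for Sars, -0.49 ± 0.24 in LGR5+ and -0.71 ± 0.25 in LGR5- cells for Eprs and 0.17 ± 0.31 in LGR5+ and -0.33 ± 0.31 in LGR5- cells for Wars, and none of these 3 passed.

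Within groups the listed genes tended to be high or low in the same library. Untreated LGR5+ replicate 2 was the highest of its group for 35 of 43 listed genes (81.4%, against 36.7% of all genes). 5-FU-treated LGR5- replicate 3 was the lowest for 29 (67.4%, against 41.3%), untreated LGR5- replicate 3 the lowest for 26 (60.5%, against 41.9%), and 5-FU-treated LGR5+ replicate 1 the highest for 28 (65.1%, against 38.6%). Summed over the 44 genes, the level was 5378 to 7300 CPM in untreated and 2643 to 3192 CPM in treated LGR5+ libraries. In LGR5- libraries it was 3775 to 5770 CPM untreated and 1900.0 to 2803 CPM treated. Without untreated LGR5+ replicate 2, 21 listed genes were lower and none higher in LGR5+ cells (3.87% and 6.99% of all genes), and no called change reversed its sign. Without both LGR5- libraries that had over 5% mitochondrial reads, an alternative added after the data were seen, 24 were lower and 1 higher in LGR5- cells (7.41% and 9.53% of all genes).

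The populations were then compared within each treatment, which asks whether LGR5+ cells run the program at another level than LGR5- cells. In untreated cells no listed gene passed an adjusted P of 0.05 by edgeR or DESeq2. By edgeR, 2 of 43 had an unadjusted P under 0.05, beside 1.32% of all genes, and DESeq2 gave 4, beside 1.63%. These 2 were Gpt2 (log2 fold change 0.76 ± 0.28, LGR5+ over LGR5-, no overlap) and Cth (0.64 ± 0.29, overlapping). Of all 16157 genes tested, 437 were higher and 416 lower without overlap, and of the 43 listed genes 5 and 0. The median over the 43 was 0.29, with 38 positive and 5 negative, and that over all genes -0.02, with 8774 of 16157 negative. Replicate 2 of the untreated LGR5+ cells, often the highest of its group, and replicate 3 of the untreated LGR5- cells, often the lowest, enter this comparison. Each untreated group is also the reference of its own 5-FU response. The unadjusted count ranged from 1 to 7 when single libraries were left out, with 1 without untreated LGR5+ replicate 2 (1.63% of all genes), 7 without its replicate 1 (2.28%), 5 without its replicate 3 (0.906%) and 4 without untreated LGR5- replicate 1 (3.25%).

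After 5-FU, again no listed gene passed by edgeR, while 4 had an unadjusted P under 0.05, beside 13.0% of all genes. That count was 8 without treated LGR5- replicate 1 or replicate 2 (14.4% and 18.3% of all genes), 2 without its replicate 3 (5.42%), 1 without treated LGR5+ replicate 2 (8.02%) and 11 with the replicate block on all 12 libraries (16.4%). Slc6a9 was higher in LGR5+ cells (1.54 ± 0.38, no overlap, adjusted P = 0.316 by edgeR). It was the 1 listed gene called by DESeq2 (adjusted P = 0.0436), among 82 of all genes (0.508%). Aldh18a1 was also higher (0.54 ± 0.24), and Pycr1 (-0.48 ± 0.17) and Atf5 (-0.85 ± 0.37) were lower, each without overlap. Such separation was common in this comparison. Of all 16157 genes tested, 1648 were lower and 2288 higher without overlap, and of the 43 listed genes 2 and 6. Same-numbered libraries among these 6 varied together (their deviations from the group means correlated at 0.646, 0.262 and 0.359). The labels do not state that equal numbers mark pairs, so a pairing is inferred from these data only. With the replicate number as a block in a fit of these 6 libraries alone, Slc6a9 (adjusted P = 0.0496) and Atf5 (adjusted P = 0.0353) passed, among 451 genes in all, and 14 of 41 listed genes had an unadjusted P under 0.05, beside 27.7% of all genes in that fit.

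The difference between both 5-FU responses was tested directly. No listed gene passed by edgeR or DESeq2, and 1 of 43 had an unadjusted P under 0.05 by edgeR (1.57% of all genes) and 4 by DESeq2 (1.77%). Leaving out single libraries gave 1 to 6, the highest without untreated LGR5+ replicate 1 (3.25% of all genes), while the share of all genes ran from 0.947% to 10.8% over these settings. The gene was Pycr1, with a difference of -0.76 ± 0.24 on the log2 scale (LGR5+ response minus LGR5- response, adjusted P = 1). For Slc6a9 the difference was 0.90 ± 0.51, for Aldh1l2 -1.88 ± 1.02 and for Cth -0.89 ± 0.42. That of Aldh1l2 ran from -2.62 without treated LGR5+ replicate 1 to -0.91 without untreated LGR5+ replicate 2. The calls that stood in 1 population only (Cebpb, Got1, Slc6a9, Gars and Nars) were therefore not shown to differ between populations.

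Genes around the program, listed by pathway with earlier results of these data known, were counted next. Of 96 such genes 93 were tested, of which 12 were lower and 5 higher in LGR5+ cells and 15 lower and 3 higher in LGR5- cells, while of all genes tested 6.37% (LGR5+) or 7.11% (LGR5-) were lower and 9.66% or 8.30% higher. A count of 1 lower gene in a list of 15 or 17 is near these shares. At an unadjusted P under 0.05, 30.1% of all genes stood in LGR5+ and 28.7% in LGR5- cells, in either direction. The median log2 fold changes of the 93 were -0.08 and -0.30. Upstream of ATF4, 1 of 15 genes of the eIF2 kinases and the eIF2 cycle was lower in LGR5+ cells and none in LGR5- cells (3 at an unadjusted P under 0.05, 1 with the replicate block). The gene lower in LGR5+ cells was Eif2ak4, the kinase GCN2 that senses uncharged tRNA (-0.88 ± 0.24 in LGR5+ and -0.60 ± 0.24 in LGR5- cells), and its call was lost in 3 of 13 other settings, with adjusted P up to 0.101. It measured in LGR5+ cells 17.8, 24.2 and 20.7 CPM untreated and 11.4, 12.7 and 9.94 CPM after 5-FU, and in LGR5- cells 16.8, 19.9 and 34.1 CPM untreated and 16.3, 15.1 and 15.4 CPM after 5-FU. For Eif2s2, a subunit of eIF2, the changes were -0.47 ± 0.20 in LGR5+ and -0.30 ± 0.20 in LGR5- cells, and for Ppp1r15b, the constitutive eIF2 phosphatase subunit, -0.34 ± 0.17 in LGR5+ and -0.50 ± 0.17 in LGR5- cells. None of 16 genes of the endoplasmic reticulum chaperones and the ATF6 and XBP1 branches passed in either population (2 in each at an unadjusted P under 0.05). Those with the smallest P in LGR5+ cells were Ern1, the sensor IRE1 (-0.60 ± 0.27 in LGR5+ and -0.22 ± 0.26 in LGR5- cells), the degradation factor Herpud1 (-0.46 ± 0.20 in LGR5+ and -0.36 ± 0.20 in LGR5- cells) and the chaperone Dnajb11 (0.52 ± 0.29 in LGR5+ and -0.02 ± 0.29 in LGR5- cells).

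Of 11 genes of the cytosolic folate cycle and folate transport, 2 were lower in LGR5+ and 4 in LGR5- cells. Slc19a1, the reduced folate carrier, measured in LGR5+ cells 37.4, 26.5 and 30.4 CPM untreated and 14.7, 12.5 and 13.0 CPM after 5-FU, and in LGR5- cells 36.5, 29.9 and 28.8 CPM untreated and 13.9, 10.1 and 12.03 CPM after 5-FU. No treated library reached the lowest untreated one, and the changes were -1.23 ± 0.19 in LGR5+ and -1.40 ± 0.19 in LGR5- cells. Slc25a32, the mitochondrial folate carrier, and Shmt1, the cytosolic counterpart of Shmt2, passed in LGR5- cells and not in LGR5+ cells (-0.55 ± 0.27 in LGR5+ and -1.22 ± 0.27 in LGR5- cells for Slc25a32, and -0.22 ± 0.31 in LGR5+ and -1.33 ± 0.32 in LGR5- cells for Shmt1). The call of Shmt1 was lost in 3 of 14 other settings. The median of this list was 0.24 in LGR5+ and -0.15 in LGR5- cells, while that of the 7 mitochondrial and serine genes was -1.86 and -1.76.

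Among the 14 other cytosolic tRNA synthetases, 3 were lower in LGR5+ and 4 in LGR5- cells. Cars, which loads cysteine, measured in LGR5+ cells 75.8, 87.6 and 72.2 CPM untreated and 43.2, 31.2 and 28.8 CPM after 5-FU, and in LGR5- cells 70.2, 66.1 and 54.6 CPM untreated and 30.7, 27.7 and 12.5 CPM after 5-FU. Its ranges were apart, with changes of -1.19 ± 0.27 in LGR5+ and -1.43 ± 0.27 in LGR5- cells. Lars for leucine (-1.21 ± 0.28 in LGR5+ and -1.09 ± 0.28 in LGR5- cells) and Yars for tyrosine (-0.85 ± 0.23 in LGR5+ and -1.01 ± 0.23 in LGR5- cells) also fell in both populations, and Mars for methionine fell in LGR5- cells (-0.78 ± 0.28 in LGR5+ and -1.21 ± 0.28 in LGR5- cells). Calls in LGR5+ cells were lost in 1 (Cars), 2 (Lars) and 4 (Yars) of 13 other settings, with adjusted P up to 0.0533, 0.055 and 0.0985, and in LGR5- cells in 3 (Lars), 1 (Yars) and 1 (Mars) of 14. Of 17 mitochondrial tRNA synthetases, 1 was lower in LGR5+ and 2 in LGR5- cells, among the latter Vars2 (-0.29 ± 0.16 in LGR5+ and -0.54 ± 0.16 in LGR5- cells), whose call was lost in 9 of 14 other settings. Rars2 passed in neither population (0.42 ± 0.18 in LGR5+ and 0.05 ± 0.18 in LGR5- cells). Lars2 was listed at 1837 to 9691 CPM, and its reads may include ribosomal RNA of like sequence, so its values are uncertain.

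Other amino acid transporters went both ways, with 4 of 11 lower and 2 higher in LGR5+ cells and 4 lower and 1 higher in LGR5- cells. Slc7a1, the cationic amino acid carrier CAT1, measured in LGR5+ cells 151, 183 and 142 CPM untreated and 61.2, 59.9 and 62.2 CPM after 5-FU, and in LGR5- cells 139.7, 178 and 137 CPM untreated and 53.3, 55.0 and 43.7 CPM after 5-FU. All treated libraries were under the untreated ones, with changes of -1.38 ± 0.18 in LGR5+ and -1.58 ± 0.18 in LGR5- cells. Slc1a3, a glutamate carrier, fell (-2.56 ± 0.43 in LGR5+ and -1.91 ± 0.42 in LGR5- cells, and -3.21 in LGR5+ cells without treated replicate 1), and Slc6a14, a broad carrier of neutral and cationic amino acids, rose (2.01 ± 0.30 in LGR5+ and 1.24 ± 0.30 in LGR5- cells), with the call in LGR5- cells lost in 3 of 14 other settings. Slc7a8 and Slc16a10 were lower and Slc7a7 higher in LGR5+ cells, without passing in LGR5- cells (-1.16, -1.46 and 0.73), and Slc7a6 and Slc38a1 were lower in LGR5- cells, without passing in LGR5+ cells (-0.78 and -0.73). These calls were lost in 5 (Slc7a8), 3 (Slc16a10) and 2 (Slc7a7) of 13 other settings and in 2 (Slc7a6) and 6 (Slc38a1) of 14.

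Among 9 other genes that ATF4 is known to induce, 1 was lower and 3 higher in LGR5+ cells, and 1 lower and 2 higher in LGR5- cells. By the limits of the study's methods 2 were lower and 1 higher in LGR5+ cells and 1 lower and 1 higher in LGR5- cells, and the log2 fold changes reached -1.75 and -1.81 on the lower side. Gdf15, a secreted stress cytokine that p53 also induces, measured in LGR5+ cells 113, 194 and 106 CPM untreated and 346, 436 and 511 CPM after 5-FU, and in LGR5- cells 113, 104 and 84.1 CPM untreated and 316, 432 and 322 CPM after 5-FU. It rose by more than the spread in both populations (1.65 ± 0.26 in LGR5+ and 1.83 ± 0.26 in LGR5- cells). Sesn2, a leucine sensor and further p53 target, rose too (1.07 ± 0.28 in LGR5+ and 0.89 ± 0.28 in LGR5- cells), and its calls were lost in 3 of 13 other settings in LGR5+ cells (adjusted P up to 0.0894) and 6 of 14 in LGR5- cells (up to 0.218). Sqstm1, the autophagy receptor p62, rose in LGR5+ cells (0.91 ± 0.26 in LGR5+ and 0.42 ± 0.26 in LGR5- cells), where the call was lost in 5 of 13 other settings, and Lonp1, a mitochondrial protease, fell (-0.88 ± 0.23 in LGR5+ and -1.15 ± 0.23 in LGR5- cells), with the call in LGR5+ cells lost in 3.

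**Figure D4:**
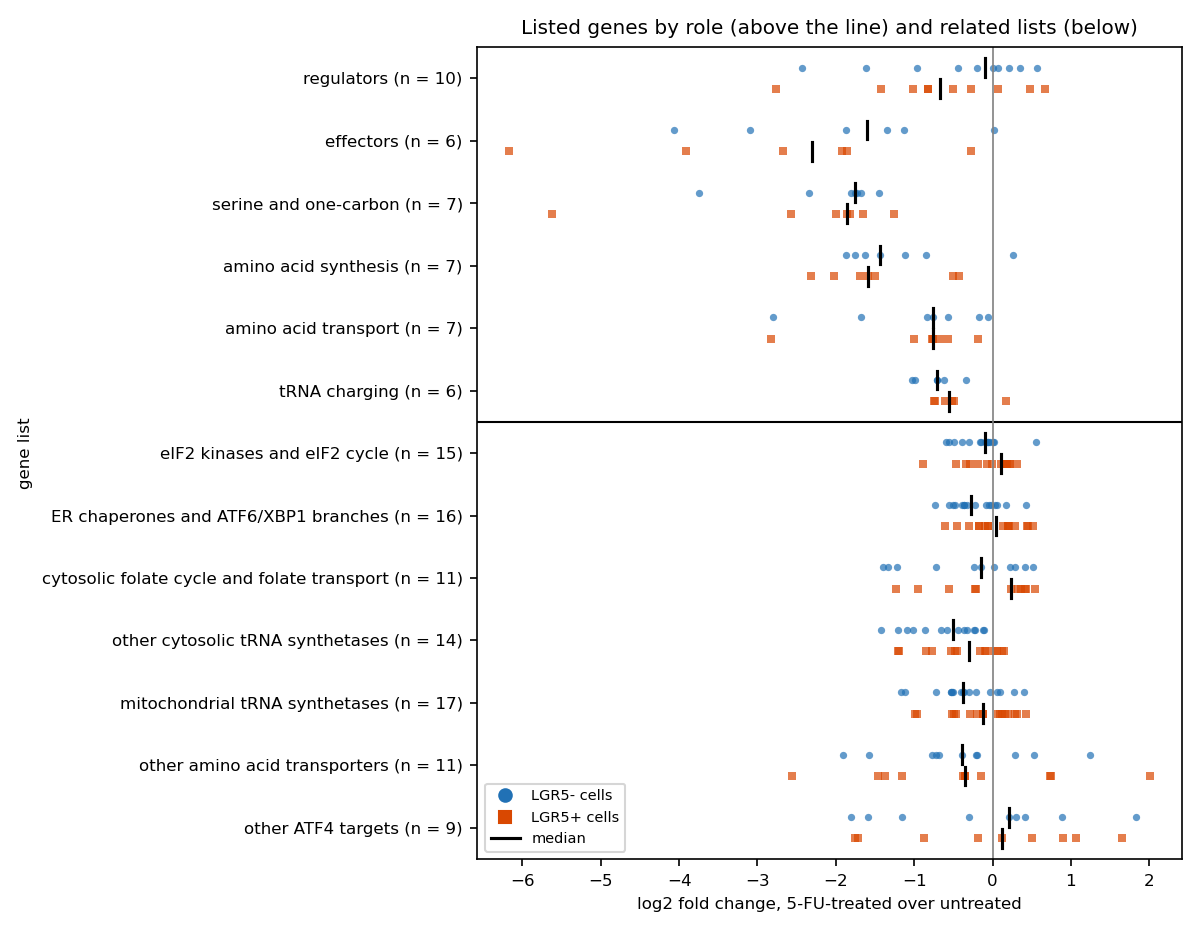
Log2 fold changes (5-FU-treated over untreated) of single genes, squares for LGR5+ and circles for LGR5- cells, by role for the listed genes (above the line) and for 7 related lists (below), with a black bar at the median. The medians of the effector, serine and one-carbon and amino acid synthesis genes lie between -2.30 and -1.43, those of the regulators, transporters and tRNA synthetases between -0.76 and -0.10, and those of the related lists between -0.51 and 0.24.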

How the data were processed

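RNA from sorted LGR5+ and LGR5- organoid cells, untreated or 5-FU-treated (3 libraries each, 12 in all), was purified on columns, amplified (SMARTer) and read from both ends. The authors deposited whole-number read counts per Ensembl gene, without normalization. The submitters' processing notes name HISAT2, HISAT, TopHat2, HTSeq and mm8. Their roles, the annotation and whether reads were counted by strand are not given in the sources used here. Symbols, exon lengths and positions are from GENCODE M21 (GRCm38) and describe that annotation, not the authors' counting.

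With R 4.3.3 and edgeR 4.0.16, genes were filtered by filterByExpr (16157 kept), scaled by TMM and fitted with a robust quasi-likelihood model on 4 group means, so that all 12 libraries share 1 estimate of the spread (common dispersion 0.0708). Contrasts were called at a Benjamini-Hochberg adjusted P under 0.05 over all genes tested. The standard error is the log2 fold change divided by the square root of F. CPM values are scaled by TMM, and CPM per kb is divided by exon length. Limits of 3 reads cover counting error only. The members, the related lists and the tests were chosen with earlier results of these data known. All 44 genes are given, with fold changes where tested (for Fgf21 in LGR5+ cells, a limit), with values in every library for up to 5 per role with the smallest P in LGR5+ cells or for the difference between responses. Related lists have values for up to 3 each by the same P, and other genes named from them, which passed the test, were added after their values were seen. A few items that these rules would name are not reported here. In counts simulated for the 5-FU response in LGR5+ cells (15930 genes tested), the test called 50 of 50 genes lowered and 50 of 50 raised 4-fold, 15 of 50 and 16 of 50 changed 2-fold, and 5 of 15730 unchanged genes. The simulation changed only a small share of the genes, all well expressed, and gave every gene the same spread. These rates therefore need not hold for listed genes with few reads or a wide spread. Libraries within a group differed far beyond sampling noise (chi-square per degree of freedom 15.1 to 124), so none was a copy. Only between the 5-FU-treated groups did all 3 same-numbered pairs correlate above 0.1, and the labels do not state that replicate numbers mark pairs. In the other pairs of groups compared, at least 1 of 3 correlations was at or under 0.1. Alternatives were DESeq2 1.42.0 (its test and its size factors), library size alone, no filter on low counts, a minimum of 10 reads in each library, a replicate block, only the 6 libraries compared and each library left out in turn, and, added after the data were seen, leaving out both LGR5- libraries with over 5% mitochondrial reads and a replicate block on the treated libraries. Promoter windows are from RefSeq (GRCm38.p6). For 37 of 43 windows the bases after the start were found in the first 400 bases of a GENCODE transcript.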

Additional observations from a re-analysis of the deposited data

How the results depend on the processing

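The number of listed genes called was 25 in LGR5+ and 28 in LGR5- cells for the 5-FU response. When single libraries were left out, it ranged from 20 to 24 in LGR5+ cells, beside 8.22% to 14.9% of all genes. The lowest count there came without 5-FU-treated replicate 2 (8.70% of all genes). In LGR5- cells it ranged from 21 to 28, beside 9.36% to 20.8% of all genes. Other settings gave 23 to 34 in LGR5+ and 21 to 31 in LGR5- cells, the extremes 34 and 21 with only the 6 libraries compared, where 26.7% and 8.35% of all genes were called, against 16.0% and 15.4% with all 12 libraries. With the replicate block in the fit of all 12 libraries the counts were 26 and 31 (18.4% and 17.9% of all genes), and no call between populations was gained. Between 5-FU-treated populations, 0 listed genes became 1 with DESeq2's test (0.508% of all genes). They became 2 with the replicate block on the 6 treated libraries alone (2.97%). In the other comparisons between populations or responses the count was 0 in every setting run. Scaling by library size alone moved the median of all genes to -0.10 in LGR5+ cells, where the call of Cebpb was lost. Over all genes called in LGR5+ cells, 1029 were lower and 1561 higher with TMM, and 1155 and 1249 by library size alone. No called fold change reversed its sign. Genes under about 1 CPM, such as Fgf21 and treated Aldh1l2, rest on few reads, and the calls of Gars and Nars held in part of the settings only.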
